A study of Rattus norvegicus with 12 samples.

Results

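The genes described here are 5 transcripts known as markers of the choroid plexus and of the meninges, Ttr, Kl, Aqp1, Igf2 and Enpp2, followed through 12 RNA sequencing libraries of rat hippocampus. They were taken by rat Ensembl gene ID (Ttr ENSRNOG00000016275, Kl ENSRNOG00000001092, Aqp1 ENSRNOG00000011648, Igf2 ENSRNOG00000020369, Enpp2 ENSRNOG00000004089), and all 5 are among the 28959 rows of the deposited table. The libraries come from the hippocampus of Sprague Dawley rats with a stated age of 6 to 7 weeks and form 4 groups of 3. Ctrl-Sal rats had no chronic stress and received saline. The other 3 groups, CUMS-Sal, CUMS-Flx and CUMS-Alb, had 5 weeks of CUMS (chronic unpredictable mild stress), a series of changing mild stressors used as a rodent model of depression. In the last 7 days they received saline, fluoxetine (a serotonin reuptake inhibitor; 10 mg/kg/d in the sample labels, 7 mg/kg/d in the series text) or albiflorin (a monoterpene glycoside of peony root; 7 mg/kg/d). Whether each library is a separate rat is not stated, and p-values therefore cover just the variation among these libraries, part of which may be technical.

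The choroid plexus is a secretory epithelium inside the brain ventricles. It makes cerebrospinal fluid, and in the lateral ventricle it lies beside the hippocampus. The meninges are the connective tissue sheets around the brain, and both can come along when the hippocampus is dissected. Ttr encodes transthyretin, the carrier of thyroxine and, with retinol-binding protein, of retinol, and is among the most abundant mRNAs of choroid plexus epithelium. Kl encodes klotho, a co-receptor for fibroblast growth factor 23. Aqp1 encodes a water channel of the epithelium's ventricular face. Igf2 encodes insulin-like growth factor 2, an imprinted growth factor made in choroid plexus and meninges. Enpp2 encodes autotaxin, the secreted enzyme that makes lysophosphatidic acid, and is also expressed by oligodendrocytes.

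The promoters of Ttr, Kl and Aqp1 are shown because these 3 mark the epithelium itself and had the largest ratios of highest to lowest library in FPKM, and they differ in composition. Each window below runs from 250 bases before to 50 bases after a RefSeq start on build GRCr8, on the plus strand. Capitals mark matches, on either strand, to the motifs named after the sequences.
Ttr, chr18:12218508-12218807: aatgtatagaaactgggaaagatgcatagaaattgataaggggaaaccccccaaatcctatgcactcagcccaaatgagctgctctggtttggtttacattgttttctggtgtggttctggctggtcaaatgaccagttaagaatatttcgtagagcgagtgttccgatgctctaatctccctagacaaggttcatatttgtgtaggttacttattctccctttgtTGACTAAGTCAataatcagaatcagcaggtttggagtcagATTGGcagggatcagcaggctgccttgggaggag
Kl, chr12:5325753-5326052: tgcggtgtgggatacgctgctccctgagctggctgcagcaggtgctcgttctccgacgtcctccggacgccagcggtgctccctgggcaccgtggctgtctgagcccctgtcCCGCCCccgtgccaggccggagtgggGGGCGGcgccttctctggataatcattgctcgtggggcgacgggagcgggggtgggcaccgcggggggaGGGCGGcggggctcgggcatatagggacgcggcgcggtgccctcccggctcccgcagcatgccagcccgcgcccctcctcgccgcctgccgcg
Aqp1, chr4:85812534-85812833: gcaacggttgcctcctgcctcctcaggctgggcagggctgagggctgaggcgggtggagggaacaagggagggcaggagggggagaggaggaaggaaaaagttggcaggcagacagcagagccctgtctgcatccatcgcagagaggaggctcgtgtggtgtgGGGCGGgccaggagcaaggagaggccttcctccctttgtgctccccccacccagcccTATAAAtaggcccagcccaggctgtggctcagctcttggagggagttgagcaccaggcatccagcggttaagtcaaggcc
The Ttr window is 43.7% G and C, against 75% for Kl, 64% for Aqp1 and a median of 51.7% over all 33469 windows. It holds the palindrome TGACT, any base, AGTCA at bases 227 to 237, as do 0.0418% of all windows. It also holds the CCAAT box (CCAAT) once, on the minus strand, as do 37.5% of windows at least once. The Kl window holds the GC box (GGGCGG, a site for Sp-family factors) 3 times and the Aqp1 window once, against 33.1% of all windows with at least one. Only the Aqp1 window of these 3 holds the TATA box letters TATAAA, found in 14.2% of windows. The letters TAATCC (the OTX2 core, 7.17% of windows), TGTTTAC (a forkhead site, 3.78%) and CACGTG (the E box, 6.42%) are in none of the 3. Other forms of these sites were not searched for. No 2 of the motifs overlap in these windows, and the motifs were chosen after the sequences were seen. A match in letters is a description of the window and not a measured binding site.

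Depth was 14735953 to 18109623 reads per library, recovered from the deposited FPKM, a read count divided by transcript length and sequencing depth. By recovered reads, the 5 genes span very different depths. Enpp2 had 1252 to 1751 reads per library, Igf2 103 to 243, Ttr 12 to 395, Kl 3 to 22 and Aqp1 1 to 9. Per length, the mean level over all libraries fell in the order Enpp2 (34.3 FPKM), Ttr (8.01 FPKM), Igf2 (3.19 FPKM), Kl (0.174 FPKM) and Aqp1 (0.118 FPKM). Kl and Aqp1, which the choroid plexus epithelium is known for, were thus near 0 in every library. Kl and Aqp1 lie below the minimum mean of 0.5 FPKM set for testing, so 3 of the 5 genes, Ttr, Igf2 and Enpp2, entered the tests over 15253 rows. The other markers of these tissues could not be looked up, since neither the deposited table nor the reference used pairs the Ensembl IDs with symbols (0 matched). In whole tissue, fewer cells of a type and less RNA per cell cannot be told apart.

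Ttr swung more between libraries of the same treatment than almost any other transcript. In Ctrl-Sal it stood at 16.9, 1.91 and 3.27 FPKM in replicates 1, 2 and 3, and in CUMS-Sal at 1.91, 2.78 and 6.40 FPKM. In CUMS-Flx it stood at 0.996, 4.26 and 4.57 FPKM, and in CUMS-Alb at 36.5, 2.25 and 14.2 FPKM. CUMS-Alb replicate 1 was the highest library and CUMS-Flx replicate 1 the lowest, and every pair of groups overlapped. Counting error is far smaller than this. The highest value rests on 395 reads (33.0 to 40.3 FPKM, exact Poisson 95% interval) and the lowest on 12 reads (0.515 to 1.74 FPKM), and such intervals cover counting error only. Between those libraries Ttr differed 36.7-fold, with an exact 95% interval of 20.8 to 71.6 for counting error. Within CUMS-Alb alone the highest and the lowest library differed 16.2-fold, within Ctrl-Sal 8.85-fold, within CUMS-Flx 4.59-fold and within CUMS-Sal 3.34-fold.

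**Figure D1:**
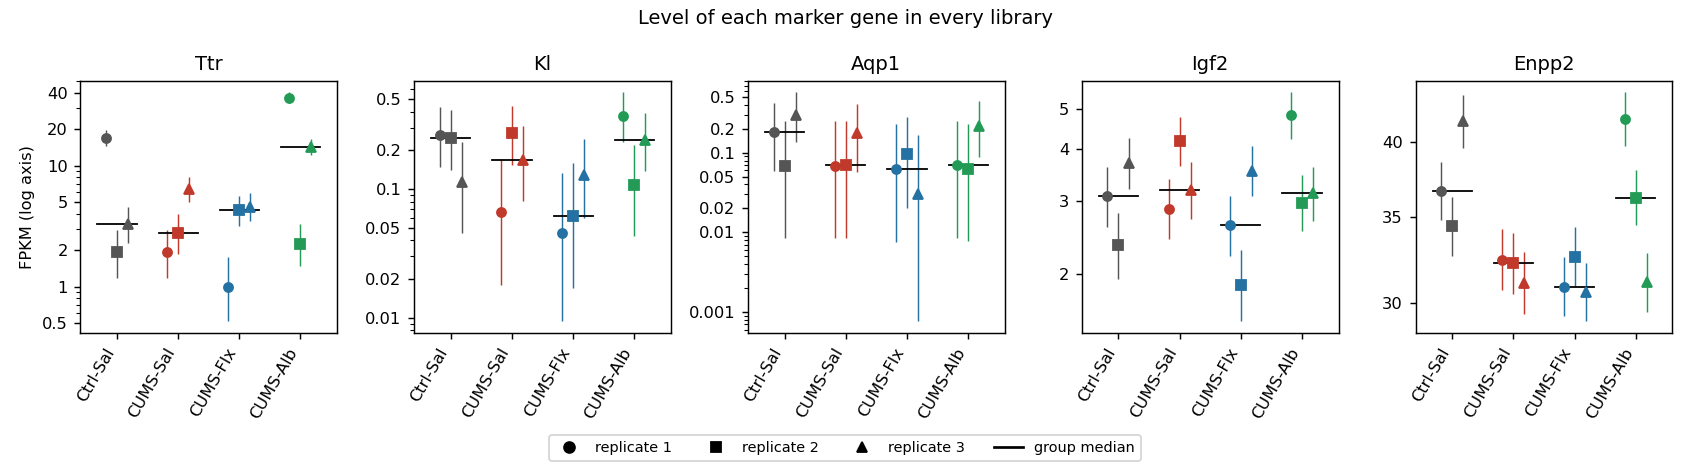
Level of each gene in FPKM (log axis, with a scale of its own per gene) in the 12 libraries; each symbol is a library, its bar the exact Poisson 95% interval of its reads, and the horizontal line the group median. Ttr runs from 0.996 to 36.5 FPKM with overlapping groups, Aqp1 rests on 1 to 9 reads per library, and Enpp2 is lower in all 3 CUMS-Sal and all 3 CUMS-Flx libraries than in any Ctrl-Sal library.

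Ttr's SD within groups was 1.36 log2 units on the scale log2(FPKM + 0.5), the 7th largest of the 15253 rows tested. The median row had 0.14 and the 99th percentile was 0.60. The variance of its reads between replicates was 83.4 times what counting alone gives, against a median of 2.73 times over the tested rows. The 4 groups accounted for 28% of its variation over libraries, against 39.4% for the median row. The 3 libraries highest in Ttr, CUMS-Alb replicates 1 and 3 and Ctrl-Sal replicate 1, had 15423401, 17226464 and 14735953 reads in all, and the lowest had 17187855.

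The other 4 genes did not swing with it to the same extent. From the library lowest in Ttr to the highest, where Ttr differed 36.7-fold, Kl differed 8.17-fold (22 against 3 reads; exact 95% interval 2.46 to 42.6). Igf2 differed 1.84-fold (243 against 147 reads; 1.49 to 2.28) and Enpp2 1.35-fold (1680 against 1389 reads; 1.25 to 1.45). Aqp1 had 2 reads in each of these libraries. CUMS-Alb replicate 1 was the highest of the 12 libraries in 4 of the 5 genes, Ttr, Kl, Igf2 and Enpp2, and the 7th in Aqp1. In Enpp2 its lead was slight, at 41.7 FPKM against 41.5 FPKM in Ctrl-Sal replicate 3. The median deviation of all tested rows from their means was 0.054 log2 units in CUMS-Alb replicate 1, the highest of the 12 libraries. It was -0.028 in Ctrl-Sal replicate 3. The share of all rows that were highest in CUMS-Alb replicate 1 was not computed. CUMS-Flx replicate 1 was the lowest in Ttr and Kl, and the 10th and 11th in Igf2 and in Enpp2. Ctrl-Sal replicate 1, at rank 2 in Ttr, had rank 3 in Kl, Aqp1 and Enpp2 and rank 7 in Igf2.

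Kl, the klotho gene, was found at 0.265, 0.250 and 0.113 FPKM in Ctrl-Sal and at 0.0665, 0.271 and 0.169 FPKM in CUMS-Sal. It was at 0.0455, 0.0623 and 0.129 FPKM in CUMS-Flx and at 0.371, 0.107 and 0.242 FPKM in CUMS-Alb. The CUMS-Flx libraries hold the 2 lowest values and the CUMS-Alb libraries the highest one, with overlap between all pairs of groups. These values rest on 37 reads in Ctrl-Sal, 30 in CUMS-Sal, 16 in CUMS-Flx and 45 in CUMS-Alb. The variance of Kl reads between replicates was 3.02 times what counting alone gives. Kl was too low for the limma test. Tested by limma with no filter, it had an adjusted p of at least 0.46 in every comparison, and by limma-voom on recovered reads of at least 0.266.

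Aqp1, the water channel, was at 0.184, 0.0693 and 0.303 FPKM in Ctrl-Sal, 0.0693, 0.0705 and 0.176 FPKM in CUMS-Sal, 0.0631, 0.0973 and 0.0299 FPKM in CUMS-Flx and 0.0703, 0.0634 and 0.220 FPKM in CUMS-Alb. The groups overlap, and 16, 9, 6 and 11 reads per group stand behind them in that order. No difference between groups was called (adjusted p of at least 0.435 by limma with no filter). The variance of Aqp1 reads between replicates was 1.45 times what counting alone gives. In the library with the most Ttr, Aqp1 was at 2 reads, and in the library with the most Aqp1, Ctrl-Sal replicate 3 with 9 reads, Ttr was only the 7th highest.

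Igf2, the growth factor, varied less than Ttr and had no group apart from the others. It was at 3.07, 2.35 and 3.70 FPKM in Ctrl-Sal and at 2.87, 4.18 and 3.18 FPKM in CUMS-Sal. It was at 2.62, 1.88 and 3.55 FPKM in CUMS-Flx and at 4.82, 2.97 and 3.13 FPKM in CUMS-Alb. The lowest library was in CUMS-Flx and the highest in CUMS-Alb, and all pairs of groups overlapped. Its SD within groups was 0.32 log2 units, rank 1187 of 15253, above the 90th percentile of 0.29. The variance of its reads between replicates was 11.2 times what counting alone gives.

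Enpp2, the autotaxin gene, was the most abundant of the 5 per length and had the smallest ratio of highest to lowest library, 1.36. It was at 36.7, 34.4 and 41.5 FPKM in Ctrl-Sal, 32.4, 32.2 and 31.1 FPKM in CUMS-Sal, 30.9, 32.6 and 30.6 FPKM in CUMS-Flx and 41.7, 36.2 and 31.2 FPKM in CUMS-Alb. All 3 CUMS-Sal and all 3 CUMS-Flx libraries lay below the lowest Ctrl-Sal library, while CUMS-Alb reached from the level of CUMS-Sal to that of the highest Ctrl-Sal library. Its SD within groups was 0.13 log2 units, rank 8698 of 15253 and below the median row. The variance of its reads between replicates was 12.3 times what counting alone gives, against a median of 2.73 times over the tested rows. This ratio rises with the number of reads, and Enpp2 had 1252 to 1751 per library, so it does not mark Enpp2 as unusually variable. The 4 groups accounted for 52.3% of its variation over libraries, against the 39.4% of the median row.

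**Figure D2:**
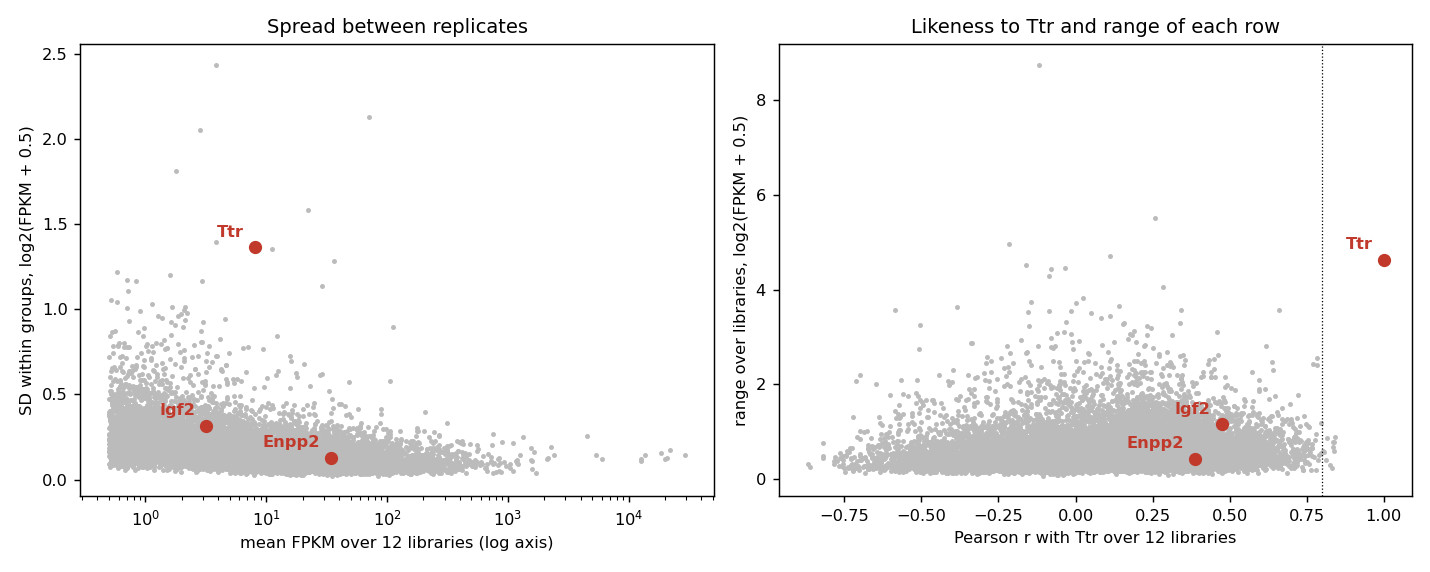
Left, the SD within groups of each of 15253 tested rows, on the log2(FPKM + 0.5) scale, against its mean level in FPKM (log axis); right, the range over the 12 libraries on the same log2 scale against Pearson's r with Ttr, with r = 0.8 dotted. Grey points are all tested rows and red points the 3 tested markers; Ttr stands high in both panels, and no other row of wide range lies to the right of the dotted line.

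Few rows followed Ttr, and those that did had narrower ranges. Over the 12 libraries, 11 of 15252 other rows had a Pearson r of at least 0.8 with Ttr, and 0 had one of at least 0.9. The median row has 36 such companions at 0.8, and 22.7% of tested rows have fewer than Ttr. The 10 rows most like Ttr had an r of 0.81 to 0.84 and ranged over 0.24 to 0.89 log2 units, while Ttr itself ranged over 4.63 (5th widest of the tested rows). ENSRNOG00000016636 led them (r = 0.84; 0.776 to 1.87 FPKM), followed by ENSRNOG00000016890 (r = 0.84; 6.79 to 12.1 FPKM). Of the 81 other rows that ranged over at least 2.5 log2 units, the highest r with Ttr was 0.78, in ENSRNOG00000061622, a row of 184 bp with 0 to 7 reads per library. Rows of so wide a range are rare, so their absence at an r of 0.8 says little. These r values are descriptions over 12 libraries that differ in group, and the rows were picked from the whole table for being alike.

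The other 4 genes had companions in like numbers. At an r of at least 0.8 there were 8 rows for Kl, 7 for Aqp1, 19 for Igf2 and 12 for Enpp2. The row most like Igf2 was ENSRNOG00000012040 (r = 0.89; 0.391 to 1.70 FPKM). The row most like Enpp2 was ENSRNOG00000013933 (r = 0.86; 9.76 to 14.2 FPKM), and the next, ENSRNOG00000002419, was abundant (r = 0.86; 542 to 722 FPKM). None of the 5 genes is among the 10 rows most like another of them.

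Among themselves the 5 genes were only loosely tied, and no pair passed the test over the 10 pairs. Ttr and Kl were the closest, at a Pearson r of 0.71 (permutation p = 0.0114, two-sided with 100000 resamples; 0.114 after Benjamini-Hochberg adjustment over 10 pairs) and a Spearman rho of 0.61 (permutation p = 0.0397, adjusted 0.198) over 12 libraries. Without the 2 libraries farthest from the median of Ttr, a step that also narrows the range of Ttr, the r was 0.43 (permutation p = 0.226). As deviations from the group means, r was 0.66 (permutation p = 0.02002, adjusted 0.2002). Such deviations are tied within each group, yet were permuted freely over all 12 libraries, so this p can be too small. Kl and Igf2 followed at r = 0.58 (permutation p = 0.0482, adjusted 0.241) and rho = 0.62 (permutation p = 0.0352, adjusted 0.198), with r = 0.34 (permutation p = 0.347) without the 2 libraries farthest in Kl. Leaving out each library in turn, a step mostly added after the data were seen, brought Ttr with Kl past the adjusted threshold in 2 cases and Kl with Igf2 in 1. Without Ctrl-Sal replicate 2, r was 0.83 for Ttr with Kl (permutation p = 0.00272, adjusted 0.0272) and 0.73 for Kl with Igf2 (permutation p = 0.00706, adjusted 0.0353), over 11 libraries; the adjusted permutation p of Spearman's rho was 0.0627 and 0.0398. Without CUMS-Sal replicate 2, r was 0.81 for Ttr with Kl (permutation p = 0.00414, adjusted 0.0414; adjusted p of rho 0.122). Over the 12 such cases, r ran from 0.56 to 0.83 for Ttr with Kl and from 0.39 to 0.73 for Kl with Igf2. In Ctrl-Sal replicate 2 Kl was 4th highest while Ttr was 10th and Igf2 11th.

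Ttr and Igf2 had r = 0.47 (permutation p = 0.116, adjusted 0.387) and rho = 0.53 (permutation p = 0.0771, adjusted 0.224), with r = 0.19 without the 2 libraries farthest in Ttr. Ttr and Enpp2 had r = 0.39 (permutation p = 0.221, adjusted 0.418) and rho = 0.25 (permutation p = 0.43, adjusted 0.49), and r = -0.21 without those libraries. Ttr and Aqp1 had r = 0.31 (permutation p = 0.334, adjusted 0.418) and rho = 0.52 (permutation p = 0.0896, adjusted 0.224), with r = 0.53 without those libraries. In the other 5 pairs r lay between 0.09 and 0.42. Libraries share depth and treatment as well as tissue.

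**Figure D3:**
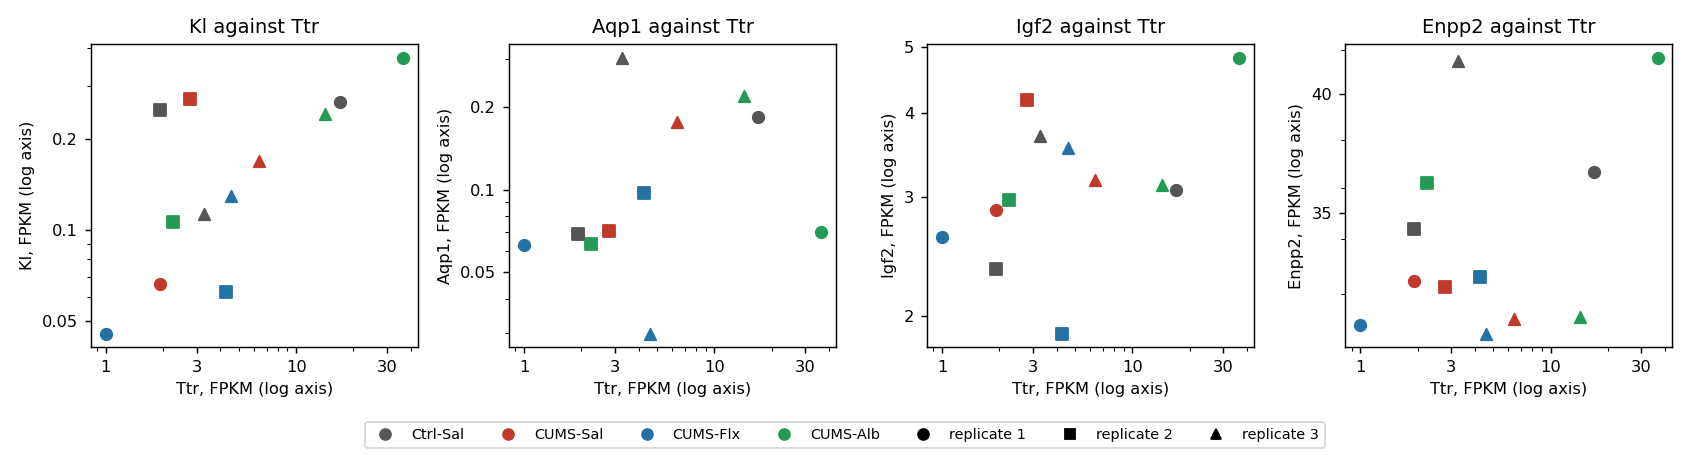
Level of Kl, Aqp1, Igf2 and Enpp2 against that of Ttr in FPKM (both axes log, each gene on its own scale); each symbol is 1 of the 12 libraries, coloured by group and shaped by replicate number. CUMS-Alb replicate 1, at 36.5 FPKM of Ttr, is at the top for Kl, Igf2 and Enpp2 and at 2 reads for Aqp1.

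Chronic stress is addressed by CUMS-Sal against Ctrl-Sal, where 0 of the 3 tested genes were called. The test was limma on log2(FPKM + 0.5) with a Benjamini-Hochberg adjusted p under 0.05 over all 15253 rows, by which 9.19% of rows were called (30% at an unadjusted p under 0.05). Enpp2 was at 31.9 ± 0.709 FPKM in CUMS-Sal and 37.5 ± 3.63 FPKM in Ctrl-Sal (SD, n = 3). Its log2 difference was -0.23 (95% interval -0.43 to -0.019, adjusted p = 0.135 by limma, unadjusted 0.0351), lower in 3 of 3 libraries. Groups that do not overlap, with CUMS-Sal lower, were found in 5.85% of all rows. That share counts only the direction Enpp2 took. Shares given without a direction in other comparisons count both directions, so they are not on the same measure. The median row was 0.10 log2 units higher in CUMS-Sal, and with each library's median deviation set to 0 the log2 difference of Enpp2 was -0.33 (adjusted p = 0.0530 by limma). Without Ctrl-Sal replicate 3, the highest of its group, it was -0.15 (adjusted p = 0.315 by limma).

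Ttr had 3.70 ± 2.38 FPKM in CUMS-Sal and 7.38 ± 8.31 FPKM in Ctrl-Sal (SD, n = 3), a log2 difference of -0.51 with a 95% interval of -2.79 to 1.76 (adjusted p = 0.776 by limma). Ctrl-Sal replicate 1 carried the direction, and without it the log2 difference was 0.33 (adjusted p = 0.857 by limma). Without Ctrl-Sal replicate 2 it was -1.10. Igf2 differed by a log2 of 0.15 (95% interval -0.34 to 0.63, adjusted p = 0.696 by limma), at 3.41 ± 0.682 FPKM in CUMS-Sal and 3.04 ± 0.677 FPKM in Ctrl-Sal (SD, n = 3). Its sign was not held: it was -0.029 under quantile normalization.

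Between CUMS-Flx and CUMS-Sal, the comparison for fluoxetine, 0 of the 3 tested genes were called, as were 0% of all rows by limma (9.98% at an unadjusted p under 0.05). Ttr was at 3.28 ± 1.98 FPKM in CUMS-Flx (SD, n = 3; log2 difference -0.20, 95% interval -2.47 to 2.08, adjusted p = 0.963 by limma). Without CUMS-Flx replicate 1, its lowest library, the difference was 0.37. Igf2 was at 2.68 ± 0.834 FPKM (log2 difference -0.32, 95% interval -0.80 to 0.17, adjusted p = 0.653). Enpp2, at 31.4 ± 1.08 FPKM, had the narrowest interval of the 3 genes, from -0.23 to 0.18 around a log2 difference of -0.025 (adjusted p = 0.948 by limma), and its sign turned under quantile normalization (0.0010) and with library medians set to 0 (0.028). None of the 5 genes had groups that do not overlap, against 17.9% of rows.

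Between CUMS-Alb and CUMS-Sal, the comparison for albiflorin, 0 of the 3 genes were called, and again 0% of all rows by limma (3.66% at an unadjusted p under 0.05). The mean of Ttr was 17.7 ± 17.4 FPKM in CUMS-Alb (SD, n = 3), 4.78 times that of CUMS-Sal, the result of 2 high libraries and 1 low one. Its log2 difference was 1.59 with a 95% interval of -0.68 to 3.87 (adjusted p = 0.9996 by limma, unadjusted 0.149). Leaving out CUMS-Alb replicate 1 gave 0.75 and leaving out CUMS-Alb replicate 2 gave 2.62. Enpp2 was at 36.3 ± 5.24 FPKM (log2 difference 0.18, 95% interval -0.033 to 0.38, adjusted p = 0.9996) and Igf2 at 3.64 ± 1.03 FPKM (log2 difference 0.068, 95% interval -0.41 to 0.55, adjusted p = 0.9996 by limma). Without CUMS-Alb replicate 1, the log2 difference was 0.073 for Enpp2 and -0.13 for Igf2. Groups overlapped for all 5 genes, while they did not for 11.3% of rows.

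The drugs were set against each other in CUMS-Alb and CUMS-Flx. Here 0 of the 3 genes were called, and 0.00656% of all rows by limma (4.98% at an unadjusted p under 0.05). All 3 genes had higher means in CUMS-Alb, with intervals that reach below 0. The log2 difference was 1.79 for Ttr (95% interval -0.48 to 4.07, adjusted p = 0.955 by limma), 0.38 for Igf2 (-0.098 to 0.87, adjusted p = 0.955) and 0.20 for Enpp2 (-0.0074 to 0.41, adjusted p = 0.955). All 3 stayed positive without CUMS-Alb replicate 1, at 0.95 for Ttr, 0.19 for Igf2 and 0.098 for Enpp2. Groups overlapped for all 5 genes, while they did not for 13.7% of rows. Kl, below the filter, had 45 reads in CUMS-Alb and 16 in CUMS-Flx and overlapped between these groups (exact two-sided permutation p = 0.2, where 3 against 3 cannot go below 0.1). By limma-voom on recovered reads its log2 difference was 1.44 (95% interval 0.17 to 2.72, unadjusted p = 0.0290, adjusted p = 0.915). By limma with no filter it was 0.34 (95% interval 0.0075 to 0.67, unadjusted p = 0.0459, adjusted p = 0.958).

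**Figure D4:**
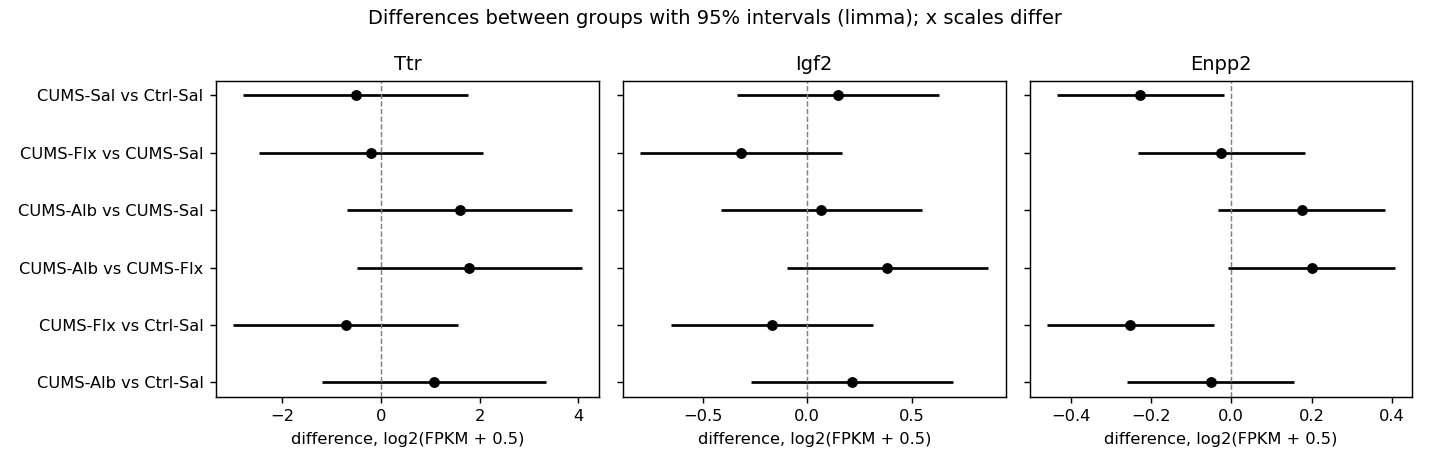
Difference in level between groups, first minus second, on the log2(FPKM + 0.5) scale, for the 3 tested genes (x scales differ); points are limma estimates over 12 libraries and bars their 95% intervals before adjustment for 15253 rows. The intervals of Ttr span over 4 log2 units and all include 0, and those of Enpp2 leave out 0 in CUMS-Sal and CUMS-Flx against Ctrl-Sal.

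Against unstressed rats, the fluoxetine group (CUMS-Flx) is compared with the same Ctrl-Sal libraries as CUMS-Sal. Between CUMS-Flx and Ctrl-Sal 0 of the 3 genes and 0.0524% of all rows were called by limma (17.5% at an unadjusted p under 0.05). Enpp2 had a log2 difference of -0.25 (95% interval -0.46 to -0.044, adjusted p = 0.215 by limma, unadjusted 0.0216), lower in 3 of 3 libraries. Groups that do not overlap, with CUMS-Flx lower, were found in 5.75% of rows, again counting only the direction Enpp2 took. Without Ctrl-Sal replicate 3 the difference was -0.18. Ttr differed by -0.71 (95% interval -2.99 to 1.56, adjusted p = 0.764) and, without Ctrl-Sal replicate 1, by 0.13. Igf2 differed by -0.17 (95% interval -0.65 to 0.31, adjusted p = 0.741 by limma). Kl, below the filter, differed by -1.34 by limma-voom on recovered reads (95% interval -2.64 to -0.040, unadjusted p = 0.0441, adjusted p = 0.266). By limma with no filter Kl differed by -0.29 (95% interval -0.62 to 0.045, unadjusted p = 0.0836, adjusted p = 0.460).

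Between CUMS-Alb and Ctrl-Sal 0 of the 3 genes and 2.5% of all rows were called by limma (27.4% at an unadjusted p under 0.05). Enpp2 differed by a log2 of -0.051 (95% interval -0.26 to 0.16, adjusted p = 0.768), Igf2 by 0.22 (-0.27 to 0.70, adjusted p = 0.567) and Ttr by 1.08 (-1.19 to 3.35, adjusted p = 0.531 by limma). For Ttr the value was 0.23 without CUMS-Alb replicate 1 and 1.92 without Ctrl-Sal replicate 1. Groups overlapped for all 5 genes, while they did not for 31% of rows. Ordered by the mean of log2(FPKM + 0.5), Ttr ran from CUMS-Alb through Ctrl-Sal and CUMS-Sal to CUMS-Flx, Igf2 from CUMS-Alb through CUMS-Sal and Ctrl-Sal to CUMS-Flx, and Enpp2 from Ctrl-Sal through CUMS-Alb and CUMS-Sal to CUMS-Flx. No 2 neighbours in these orders passed the limma threshold. CUMS-Flx had the lowest mean FPKM of the 4 groups in all 5 genes, and CUMS-Alb or Ctrl-Sal the highest. The share of all rows with this order was not computed, and the median row differed by -0.053 log2 units in CUMS-Flx against CUMS-Sal. Kl and Aqp1 rest on 16 and 6 reads in CUMS-Flx. Against CUMS-Sal, Ttr was 0.37 log2 units higher without CUMS-Flx replicate 1, and Enpp2 0.028 higher with library medians set to 0. Whether tissue carried along in the dissection differed between libraries was not tested, since the other markers of that tissue could not be matched to rows.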

How the data were processed

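RNA from snap-frozen rat hippocampus, 3 µg per library, was extracted with TRIzol and sequenced with a standard Illumina protocol, per the labels. The submitters' processing notes name TopHat2 and rat rn6. The counter, annotation and strand setting were not given in these sources, so overlapping genes could not be set apart. The authors deposited one table of 28959 rows and 12 library columns, with no unit in its header. The deposited values behave as FPKM. For all 22737 rows above 0, a whole length and whole reads per library (within 0.0001 of a read) gave the deposited values. A sparse row's reads can be understated by a common factor. On simulated data the step returned 12 of 12 totals.

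Values were tested on log2(FPKM + 0.5), which understates changes of low genes, over the 15253 rows whose mean reached 0.5 FPKM, by limma 3.58.1 in R 4.3.3 (trend and robust settings, all 12 libraries, 1 coefficient per group). The test was run on simulated reads first. The members and lists were chosen with earlier results of these data known. The members are named in every comparison, and the 10 rows of highest Pearson r with each were taken; other lists could not be matched. Intervals of single levels and of ratios between 2 libraries are exact Poisson or binomial ones at 95% and cover counting error only. Intervals of log2 differences between groups are 95% limma intervals and rest on the variation between libraries. Alternatives were other pseudocounts (0.1 and 1), filters, scalings, limma without trend and robust settings, limma-voom (recovered reads, minimum mean 10), fits of just 2 groups, a block for replicate number, and each library left out. Figures used matplotlib 3.10.9 in Python 3.11.15.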

Additional observations from a re-analysis of the deposited data

How the results depend on the processing

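In none of the settings tried was any of the 5 genes called in any of the 6 comparisons; the lowest adjusted p was 0.0530, for Enpp2 in CUMS-Sal against Ctrl-Sal with library medians set to 0. Of 282 recomputed log2 differences of Ttr, Igf2 and Enpp2, 84 equal the reported estimate by construction, since the setting changes only the error or the rows tested; of the other 198, 185 kept their sign and 13 did not. None was called. The minimum mean of 5 FPKM leaves Igf2 out. Under quantile normalization Igf2 turned to -0.029 in CUMS-Sal against Ctrl-Sal and Enpp2 to 0.0010 in CUMS-Flx against CUMS-Sal, and the latter was 0.028 with library medians set to 0. Leaving out 1 library gave ranges across 0 for Ttr in CUMS-Sal (-1.10 to 0.33) and CUMS-Flx (-1.29 to 0.13) against Ctrl-Sal and in CUMS-Flx against CUMS-Sal (-0.53 to 0.37). The same held for Igf2 in CUMS-Sal against Ctrl-Sal (-0.00040 to 0.28), CUMS-Alb against CUMS-Sal (-0.13 to 0.20) and CUMS-Flx against Ctrl-Sal (-0.36 to 0.023), and for Enpp2 in CUMS-Alb against Ctrl-Sal (-0.15 to 0.053). The cause was not tested. Of 10 correlations, 0 to 2 passed the adjusted threshold with 1 library left out (2 without Ctrl-Sal replicate 2 and 1 without CUMS-Sal replicate 2) and 0 under the other settings. Quantile normalization covered only the pairs among Ttr, Igf2 and Enpp2, so the pairs with Kl or Aqp1 were not tested there. With 1 library left out, r ran from -0.072 to 0.24 for Aqp1 with Igf2 and from -0.078 to 0.53 for Aqp1 with Enpp2; all but Ctrl-Sal replicate 2 were added after seeing the data. As deviations from the group means, r was -0.24 for Kl with Aqp1, -0.026 for Kl with Enpp2 and -0.032 for Aqp1 with Enpp2. Without the 2 libraries farthest on the first gene it was -0.21 for Ttr with Enpp2, -0.074 for Kl with Enpp2 and -0.11 for Aqp1 with Igf2. Kl and Aqp1 were not tested under most settings. With the replicate number as a block, 0 of the 5 genes were called in each comparison, and the adjusted p of Enpp2 in CUMS-Sal against Ctrl-Sal was 0.170, where over all rows 509 higher and 56 lower calls stood against 1402 calls without the block. Deviations from the group means had an r over 0.1 in 1 of 18 same-numbered pairs of libraries and in 7 of 36 pairs of different number. The labels do not say whether the numbers pair the samples, and low r values cannot decide it. Aqp1 rests on 42 reads over all libraries and Kl on 128.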
